A study of Homo sapiens with 34 samples.

Results

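The 10 genes described here encode proteins that store, release and take up calcium at the sarcoplasmic reticulum of heart muscle cells, with the sodium-calcium exchanger that removes calcium across the cell membrane. They were chosen by name: RYR2, ATP2A2, PLN, SLN, CASQ2, SLC8A1, TRDN, JPH2, HRC and CAMK2D. All 10 were found among the 23189 genes of the count table. The RefSeq transcript row with the largest total count stood for each gene, because rows of 1 gene share reads and cannot be added.

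H1 human embryonic stem cells (ESCs), an established line, were differentiated along the cardiac lineage with the GSK3β inhibitor CHIR99021 and then the Wnt inhibitor IWP2, with insulin added at day 7. Lentivirus delivered to 3 lines an shRNA that targets NKX2-5, ZEB2 or ZNF503. The controls, called WT cells, had received either an shRNA to GFP or the vector alone. For each target the vector with the best knockdown among several was used, so that a single shRNA stood for each gene. RNA sequencing read total RNA of whole cultures at days 0, 2, 6 and 10, with 2 libraries in each of 15 groups used here. Day 10 of the ZNF503 shRNA line was not analysed here. At day 10, WT and ZEB2 shRNA cells are given by replicates 3 and 4, because the values of replicates 1 and 2 did not follow the row order of the table (median rank correlation with replicate 3 from 0.00793 to 0.0131, against 0.984 and 0.993 for replicate 4). Of 34 libraries, 30 were used, with totals from 9189943 counts (WT day 10 replicate 4) to 90814577 counts.

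In a heart muscle cell, calcium enters through membrane channels and opens the ryanodine receptor, which releases the calcium store of the sarcoplasmic reticulum and triggers contraction. The pump SERCA2 then returns calcium to the store, under the brake of small membrane peptides, and the sodium-calcium exchanger removes the rest. Junctional proteins hold the release channel beside the outer membrane and tether calcium-binding proteins inside the store.

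By role, RYR2 (NM_001035, chr1:237205484-237997288, plus strand, GRCh37) is the cardiac ryanodine receptor. TRDN (NM_001256021, chr6:123537484-123958334, minus strand) encodes triadin, which anchors calsequestrin at the release channel. CASQ2 (NM_001232, chr1:116242642-116311505, minus strand) is cardiac calsequestrin, the calcium buffer of the store. HRC (NM_002152, chr19:49654455-49658653, minus strand) is a histidine-rich calcium-binding protein of the same compartment, and JPH2 (NM_020433, chr20:42735230-42815828, minus strand) encodes junctophilin 2, which holds the store against the cell membrane.

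For uptake, ATP2A2 (NM_170665, chr12:110718561-110788898, plus strand) encodes SERCA2. PLN (NM_002667, chr6:118869459-118882879, plus strand) encodes phospholamban and SLN (NM_003063, chr11:107578104-107590419, minus strand) sarcolipin, both inhibitors of SERCA pumps. SLC8A1 (NM_021097, chr2:40324410-40838193, minus strand) encodes the sodium-calcium exchanger NCX1. CAMK2D (NM_001221, chr4:114339210-114683083, minus strand) is the delta subunit of the calmodulin-dependent kinase, which phosphorylates both the release channel and phospholamban. PLN lies inside CEP85L on the opposite strand with 0 exonic bases in common, and SLC8A1 shares 2040 exonic bases with its antisense gene, whose row held 42 counts in total. Whether counting used the strand was not given in the sources used here, so reads of such pairs are uncertain.

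Promoter windows, from 250 bases before to 50 bases after the annotated start, were read from RefSeq (GRCh38.p14) for 9 of the members; ATP2A2 and SLC8A1 had more than 1 window. The windows below belong to PLN, SLC8A1, HRC and JPH2, the members closest to the mean profile of all 10 over the groups, as given later. Capitals mark 2 motifs found in these 4 windows, AGATAA (1 form of the GATA factor motif) and TNAAGTG (a form of the NKX2-5 motif), on either strand. Other forms of these motifs were not searched for and are not marked.
PLN, chr6:118548046-118548345, plus strand: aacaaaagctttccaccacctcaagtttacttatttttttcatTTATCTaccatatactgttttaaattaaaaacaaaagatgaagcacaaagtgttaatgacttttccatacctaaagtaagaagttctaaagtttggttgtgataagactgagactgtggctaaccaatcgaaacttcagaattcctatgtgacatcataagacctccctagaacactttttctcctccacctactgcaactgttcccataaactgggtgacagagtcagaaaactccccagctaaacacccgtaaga
SLC8A1, chr2:40512386-40512685, minus strand: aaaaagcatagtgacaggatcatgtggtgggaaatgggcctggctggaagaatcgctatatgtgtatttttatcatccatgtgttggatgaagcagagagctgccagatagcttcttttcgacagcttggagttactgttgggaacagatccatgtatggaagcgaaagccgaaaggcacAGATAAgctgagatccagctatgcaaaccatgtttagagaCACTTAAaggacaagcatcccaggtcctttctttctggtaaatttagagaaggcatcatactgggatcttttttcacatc
HRC, chr19:49155347-49155646, minus strand: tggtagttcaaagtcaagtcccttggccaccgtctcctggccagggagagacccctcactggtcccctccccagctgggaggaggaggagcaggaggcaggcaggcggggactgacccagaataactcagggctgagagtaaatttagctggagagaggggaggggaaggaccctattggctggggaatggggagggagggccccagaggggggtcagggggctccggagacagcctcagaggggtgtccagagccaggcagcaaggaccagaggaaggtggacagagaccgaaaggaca
JPH2, chr20:44187139-44187438, minus strand: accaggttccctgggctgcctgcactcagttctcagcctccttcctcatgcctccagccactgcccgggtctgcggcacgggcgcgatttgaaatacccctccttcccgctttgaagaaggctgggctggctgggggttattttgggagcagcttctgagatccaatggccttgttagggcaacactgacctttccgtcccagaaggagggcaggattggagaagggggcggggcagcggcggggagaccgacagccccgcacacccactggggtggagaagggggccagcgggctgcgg

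Counted from the start site, AGATAA began at base -207 of the PLN window and at base -70 of the SLC8A1 window, and 10.33% of the 35116 windows of all genes held it. TNAAGTG began at base -30 of the SLC8A1 window, 1 of 9 members held it, and 10.19% of all windows did. The ZEB2-type E-box CAGGTG or CACCTG stood in the window of CAMK2D alone, at base -231, against 20.59% of all windows. A MEF2 site stood in the windows of ATP2A2 (base -64 of its first window) and CASQ2 (base -197), against 1.86% of all windows, and a CArG box in 0 of 9 members against 1.29%. TATAAA, searched on the gene's own strand, occurred in the third SLC8A1 window only, at bases -143 and -111, against 7.33% of all windows. The percentages are shares of single windows, whereas a member with more than 1 window counted if any of them held the motif. A match is a description of the letters and no evidence that a factor binds.

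The knockdown was read first in the targeted genes. Values are CPM, counts scaled to a common library size with TMM factors. At day 6 NKX2-5 stood at 84.3 and 50.3 CPM in the WT libraries and at 0.995 and 0.761 CPM in NKX2-5 shRNA cells. ZEB2 stood at 97.0 and 93.9 CPM in WT and at 54.4 and 57.3 CPM in ZEB2 shRNA cells, and ZNF503 at 8.73 and 9.31 CPM in WT and at 0.613 and 0.650 CPM in ZNF503 shRNA cells. At day 6 each target was lower than WT in both libraries of its own line, but not there alone. ZEB2 stood lower still in NKX2-5 shRNA (20.6 and 20.5 CPM) and ZNF503 shRNA cells (11.0 and 12.8 CPM). ZNF503 stood at 0.590 and 0.901 CPM in NKX2-5 shRNA cells, and NKX2-5 at 2.91 and 2.07 CPM in ZNF503 shRNA cells. ZEB2 shRNA cells held less NKX2-5 than WT (37.1 and 34.95 CPM) and more ZNF503 (13.1 and 11.85 CPM). At day 10 ZEB2 stood at 117.5 and 106.6 CPM in WT and at 55.2 and 55.1 CPM in ZEB2 shRNA cells. NKX2-5 then stood at 107 and 170 CPM in WT and at 39.5 and 21.6 CPM in ZEB2 shRNA cells. ZNF503 was higher in ZEB2 shRNA cells (25.4 and 24.7 CPM) than in WT (5.44 and 10.2 CPM). In NKX2-5 shRNA cells at day 10, NKX2-5 stood at 0.672 and 3.14 CPM. In the same libraries ZEB2 (64.7 and 145.3 CPM) and ZNF503 (3.75 and 13.2 CPM) overlapped WT. At day 2, ZNF503 in its own line (0.991 and 1.76 CPM) overlapped WT (1.10 and 1.98 CPM). At day 0, NKX2-5 did not exceed 0.417 CPM, ZEB2 0.234 CPM and ZNF503 0.278 CPM in any library.

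The labelled cell type was then compared with 10 cardiomyocyte marker genes. Their summed level in WT cells rose from between 49.6 and 59.0 CPM at day 0 to between 69320 and 78440 CPM at day 10, where none of the 10 was at 0. At day 6 it lay between 34930 and 43100 CPM in WT, 16850 and 17820 in ZEB2 shRNA, 10070 and 10570 in ZNF503 shRNA and 7367 and 7525 in NKX2-5 shRNA cells. At day 10 it lay between 13160 and 18100 CPM in ZEB2 shRNA and between 3254 and 4271 CPM in NKX2-5 shRNA cells. In bulk RNA, fewer cells of a type and less RNA per cell cannot be told apart, and this holds for each result that follows.

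**Figure D1:**
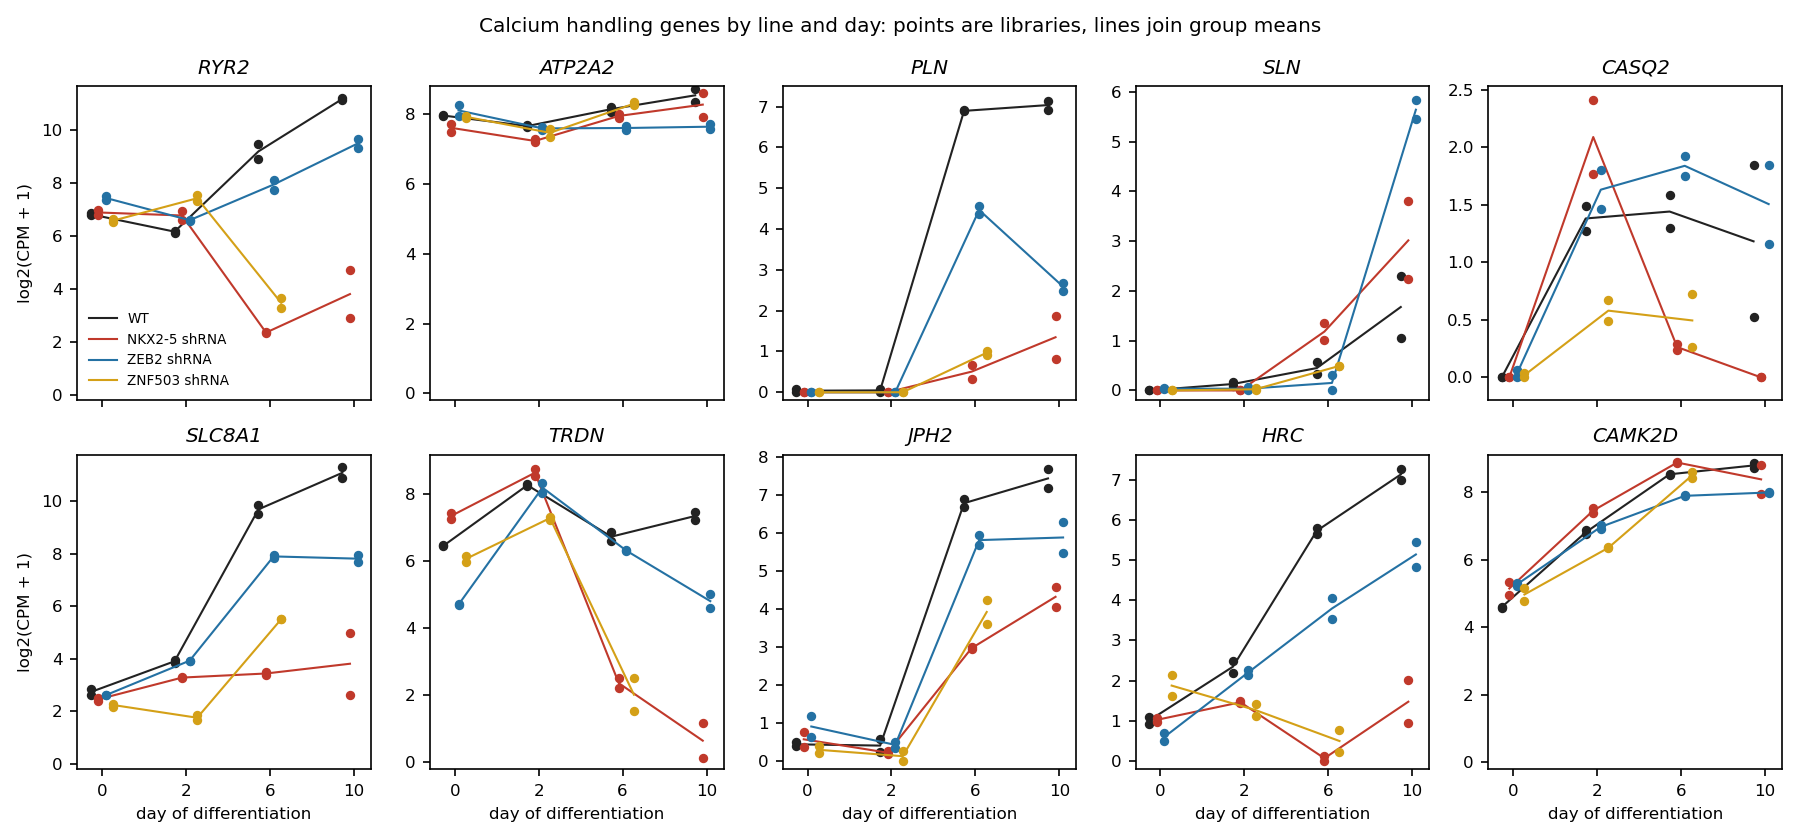
Levels of the 10 genes as log2(CPM + 1) against day of differentiation (days evenly spaced), with 1 panel per gene and its own vertical scale; points are libraries, lines join the means of the log2 values, and colours give the line. PLN, SLC8A1, JPH2 and HRC were low at days 0 and 2 and ordered WT, ZEB2 shRNA and then the other lines from day 6, while ATP2A2 stayed within a narrow band and SLN was highest in ZEB2 shRNA cells at day 10.

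The first comparison asked how the calcium handling genes changed over time in WT cells. All 10 members were higher at day 10 than at day 0 (edgeR quasi-likelihood test, 5% FDR over all genes tested, a threshold used throughout unless another is named), where 39.1% of the 17217 genes tested were called higher. The median log2 change of the members was 7.83, and 5.92 with SLN and CASQ2, which had 0 counts at day 0, placed at the smallest fold that 3 counts over the group allows; the median of all genes was 0.10. The genes did not rise together: 6 of 10 had changed by day 2 (44.1% of all genes), 8 of 10 changed between days 2 and 6 (49.8%), and 8 of 10 rose between days 6 and 10 (28.2% of all genes rose).

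RYR2, the release channel, was already present in undifferentiated cells. WT libraries held 109.5 and 116 CPM at day 0, 73.1 and 69.5 at day 2, 716 and 487 at day 6, and 2407 and 2269 at day 10. The libraries of the 4 days did not overlap, with a shallow low at day 2 followed by 2 steep steps. The log2 change was -0.63 ± 0.16 (SE, adjusted p = 0.0095) from day 0 to day 2, a call that was lost without WT day 0 replicate 2 or either WT day 2 library, then 3.07 ± 0.17 (adjusted p = 2.4e-07) to day 6 and 1.98 ± 0.16 (adjusted p = 8.7e-06) to day 10. The gene spans 105 exons, and whether intronic reads were counted was not given in the sources used here.

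TRDN followed another course. Its WT libraries held 86.2 and 87.4 CPM at day 0, 311 and 301 at day 2, 115 and 95.7 at day 6, and 176 and 148 at day 10. In this row the highest level stood at day 2, where 1 of 10 cardiomyocyte markers had changed from day 0, downward. The steps were 1.85 ± 0.12 (adjusted p = 2.6e-06), -1.55 ± 0.12 (adjusted p = 3.4e-06) and 0.64 ± 0.12 (adjusted p = 0.0013) on the log2 scale.

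The 2 best covered transcript rows of TRDN changed their ratio over these days. In WT cells the counts of the second row (NM_006073) were 54.2% ± 0.26 (SD, n = 2) of those of the first at day 0, 66.7% ± 4.1 at day 2, 98.2% ± 4.3 at day 6 and 186.5% ± 13.2 at day 10. The order of the rows was reversed at day 10 in both libraries (177% and 196%). Read from the second row, the rise of TRDN from day 0 to day 10 was 2.72 on the log2 scale in place of 0.94, and the step from day 6 to day 10 was 1.56 in place of 0.64. The second row was not highest at day 2: it held 199 and 209 CPM in WT at day 2 and 312 and 289.5 CPM at day 10. A further row (NM_001251987) held 179.8 and 178.6 CPM at day 2 against 199.8 and 190 CPM at day 10. Whether TRDN was highest at day 2 or day 10 thus depended on the row, while all 3 rows rose from day 0 to day 2 and were lower again at day 6. The rows share exons, so the ratio shows that their reads shifted and does not give the share of either transcript.

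**Figure D2:**
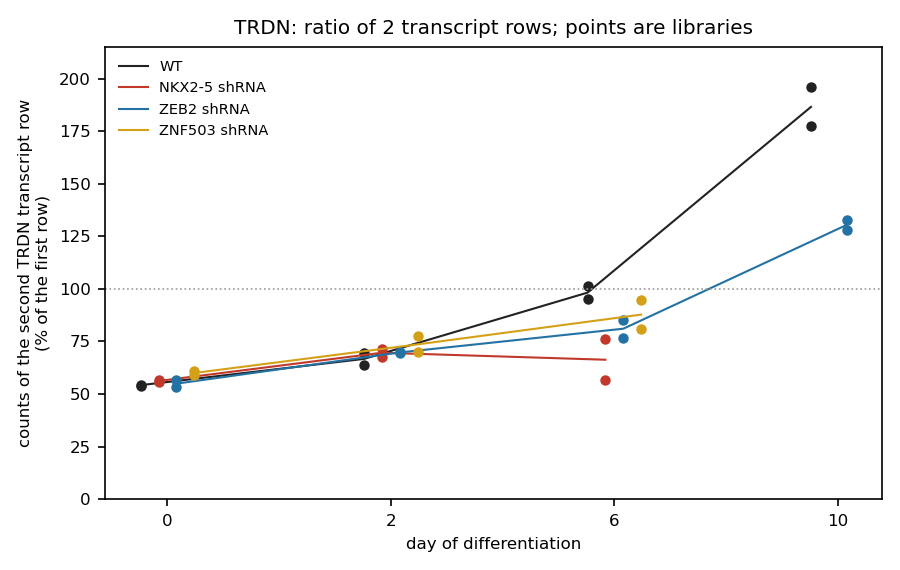
Counts of the second TRDN transcript row as a percentage of the first, against day of differentiation; points are libraries and lines join group means. WT cells rose from 54.2% at day 0 to 186.5% at day 10 and ZEB2 shRNA cells to 130.4%, while NKX2-5 shRNA cells at day 10, with 2 and 27 counts, are not drawn.

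PLN was off or nearly off until day 2 and on at day 6. The WT libraries held 2 counts in all at day 0 and 2 counts at day 2, then 117 and 119 CPM at day 6 and 121 and 141 CPM at day 10. The day 6 counts were 2795 times those of day 2, with a counting interval from 774 to 23090, and the further step to day 10 was 0.16 ± 0.15 on the log2 scale (adjusted p = 0.37). JPH2 made the same step, from 0.194 and 0.494 CPM at day 2 to 118 and 101 CPM at day 6, with 146 and 203 CPM at day 10 (log2 change from day 2 to day 6 of 8.48 ± 0.31, adjusted p = 1.3e-08).

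SLC8A1 and HRC rose at each step. SLC8A1 held 5.12 and 6.22 CPM at day 0, 14.7 and 13.3 at day 2, 925 and 738 at day 6, and 2505 and 1881 at day 10. HRC held 0.901 and 1.12, 4.65 and 3.58, 54.7 and 49.5, and 152 and 127 CPM at the same days. No libraries of neighbouring days overlapped for either gene, and all 6 steps passed the test.

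CASQ2 and SLN stayed low in WT cells. CASQ2 had 0 counts in both libraries at day 0 and 1.81 and 1.42 CPM at day 2, at least 42.5-fold higher, but then stayed there with 2.00 and 1.46 CPM at day 6 and 2.59 and 0.435 CPM at day 10. SLN held 0 counts at day 0, 0.261 and 0.480 CPM at day 6 and 3.89 and 1.09 CPM at day 10. The WT day 10 libraries differed for both genes by more than the step between the days before, and the rise of SLN from day 6 to day 10 (2.76 ± 0.68 on the log2 scale, adjusted p = 0.0069) lost its call without WT day 10 replicate 3 or WT day 6 replicate 1.

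ATP2A2 and CAMK2D, the pump and the kinase, were present throughout. ATP2A2 held 250.2 and 245 CPM at day 0, 198 and 204 at day 2, 296 and 268 at day 6, and 423 and 325 at day 10, a rise of 0.63 ± 0.12 on the log2 scale from day 0 to day 10 (adjusted p = 0.0010). CAMK2D held 23.5 and 22.9, 116 and 107, 366 and 370.2, and 463 and 422 CPM, with a rise of 4.29 ± 0.11 (adjusted p = 7.1e-10). In the rows used, ATP2A2 thus had the smallest rise of the 10 genes over the whole course, and most of the rise of CAMK2D was complete by day 6. The second ATP2A2 row held 180.2 and 174.9 CPM at day 0 and 345.1 and 260.1 CPM at day 10.

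Per kilobase of exon, the order of the members turned over as the cells differentiated. At day 0 ATP2A2 stood first at 29.9 ± 0.41 CPM per kb (SD, n = 2), followed by TRDN at 18.8 ± 0.18, RYR2 at 6.81 ± 0.29 and CAMK2D at 4.01 ± 0.067. At day 10 RYR2 stood first at 141 ± 5.9, then SLC8A1 at 103.8 ± 20.9, CAMK2D at 76.4 ± 5.0 and HRC at 59.2 ± 7.5. ATP2A2 at 45.1 ± 8.4 and PLN at 43.8 ± 4.8 were followed by TRDN at 35.0 ± 4.3, JPH2 at 18.4 ± 4.3, SLN at 3.45 ± 2.74 and CASQ2 at 0.584 ± 0.588. The neighbours HRC and ATP2A2, ATP2A2 and PLN, PLN and TRDN, and SLN and CASQ2 differed by less than the sum of their SDs, so that their order is uncertain. The place of TRDN at day 10 also depends on its row: the second row held a mean of 300.9 CPM in WT, against 162 CPM in the row used. The exon lengths are those of the reference transcript and need not be those of the counted row.

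**Figure D3:**
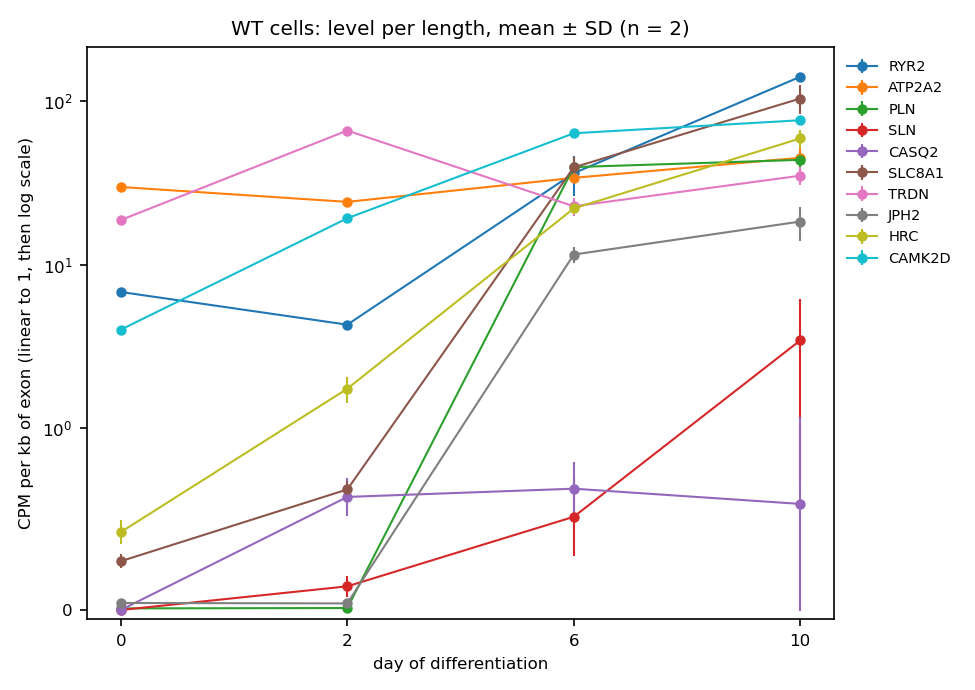
WT level of each gene in CPM per kb of exon against day of differentiation, as mean with SD of 2 libraries, on an axis that is linear up to 1 and logarithmic above. ATP2A2 led at day 0 and TRDN at day 2, RYR2 reached 141 CPM per kb at day 10, and the bars of SLN and CASQ2 at day 10 are about as long as their means.

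The next comparisons asked how each knockdown altered these genes. The WT libraries of a day were shared by all comparisons of that day. In undifferentiated cells PLN, SLN and CASQ2 were too low to test, and of the other 7 members 3 differed from WT with the NKX2-5 shRNA (15.9% of all genes tested), 3 with the ZEB2 shRNA (3.93%) and 2 with the ZNF503 shRNA (7.53%). TRDN was the member called in all 3 lines, and not in 1 direction. Against 86.2 and 87.4 CPM in WT it held 170.1 and 153 CPM with the NKX2-5 shRNA, 24.9 and 25.2 with the ZEB2 shRNA and 62.2 and 70.2 with the ZNF503 shRNA. The 4 groups did not overlap. The log2 changes were 0.87 ± 0.10 (adjusted p = 0.00027), -1.82 ± 0.10 (adjusted p = 1.7e-06) and -0.40 ± 0.10 (adjusted p = 0.030), of which the last was lost without any 1 of its 4 libraries and with the second TRDN row. These differences stood at a day when the targeted genes themselves were near 0, as given above.

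The other day 0 calls depended on single libraries. CAMK2D was higher in NKX2-5 shRNA (0.56 ± 0.16, adjusted p = 0.030) and ZEB2 shRNA cells (0.67 ± 0.15, adjusted p = 0.033), RYR2 was higher in ZEB2 shRNA cells (0.60 ± 0.11, adjusted p = 0.0084), ATP2A2 was lower in NKX2-5 shRNA cells (-0.37 ± 0.11, adjusted p = 0.043) and HRC was higher in ZNF503 shRNA cells (1.44 ± 0.34, adjusted p = 0.027). Each of these 5 calls was lost without 1 or more of the 4 libraries of its comparison: without any of the 4 for CAMK2D in ZEB2 shRNA and HRC in ZNF503 shRNA cells, without either WT library or replicate 1 of ZEB2 shRNA cells for RYR2, without either WT library or replicate 1 of NKX2-5 shRNA cells for ATP2A2, and without either WT library or replicate 2 of NKX2-5 shRNA cells for CAMK2D. Those leave-one-out fits have 1 library on a side.

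At day 2 the lines differed from each other in how many members moved, as they did in the share of all genes called. Of 8 members tested, 7 differed in NKX2-5 shRNA cells (26.7% of all genes), 6 in ZNF503 shRNA cells (26.9%) and 0 in ZEB2 shRNA cells (0.49%) by edgeR, where 1 member had an unadjusted p under 0.05 and DESeq2 and the fit with the replicate number as a block each called 1. RYR2 moved upward in both of the first lines: 122 and 98.2 CPM in NKX2-5 shRNA cells (0.60 ± 0.10, adjusted p = 0.00079) and 185 and 160.2 CPM in ZNF503 shRNA cells (1.23 ± 0.10, adjusted p = 7.0e-07), against 73.1 and 69.5 CPM in WT. SLC8A1 moved downward in both, to 8.71 and 8.79 CPM in NKX2-5 shRNA cells (-0.71 ± 0.16, adjusted p = 0.0062) and 2.15 and 2.62 CPM in ZNF503 shRNA cells (-2.64 ± 0.18, adjusted p = 1.1e-07), against 14.7 and 13.3 CPM in WT. HRC was lower in both as well (-1.26 ± 0.28, adjusted p = 0.0042, and -1.66 ± 0.28, adjusted p = 0.00053).

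TRDN, CASQ2 and CAMK2D went apart at day 2. In NKX2-5 shRNA cells they were higher, by 0.35 ± 0.10 (adjusted p = 0.016), 1.04 ± 0.34 (adjusted p = 0.037) and 0.63 ± 0.09 (adjusted p = 0.00018) on the log2 scale. In ZNF503 shRNA cells they were lower, by -1.03 ± 0.10 (adjusted p = 3.1e-06), -1.67 ± 0.40 (adjusted p = 0.0059) and -0.51 ± 0.09 (adjusted p = 0.00055). The first 2 calls in NKX2-5 shRNA cells were lost without TMM scaling and without either WT library or replicate 1 of NKX2-5 shRNA cells, and those of HRC and SLC8A1 in NKX2-5 shRNA cells and of CASQ2 in ZNF503 shRNA cells without WT day 2 replicate 1. ATP2A2 was lower in NKX2-5 shRNA cells (-0.45 ± 0.09, adjusted p = 0.0033). Most day 2 calls in NKX2-5 shRNA cells were lost when all libraries were fitted together. With the fold and FDR thresholds of the study, all of them were lost, and most of those in ZNF503 shRNA cells.

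**Figure D4:**
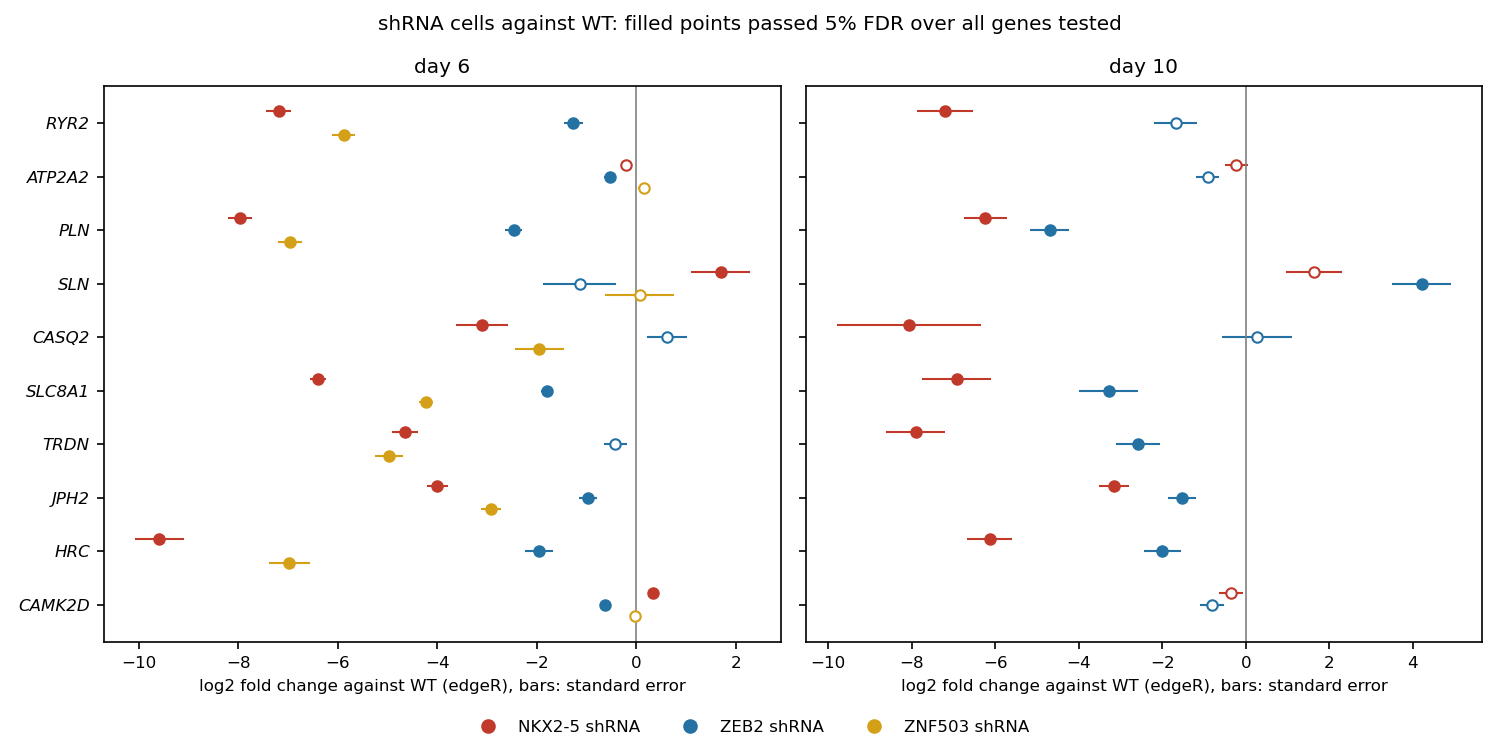
Log2 fold change of each gene in shRNA cells against WT at day 6 and day 10. Bars are the SE derived from the edgeR test, the absolute log2 change over the square root of F. Filled points passed 5% FDR and open points did not. NKX2-5 and ZNF503 shRNA cells lay far below WT for 7 genes at day 6, and ZEB2 shRNA cells lay closer to WT for these. In NKX2-5 and ZNF503 shRNA cells ATP2A2 and CAMK2D lay between -0.34 and 0.34. In ZEB2 shRNA cells they lay at -0.54 and -0.64 at day 6 and at -0.91 and -0.80 at day 10. The fitted value of CASQ2 in NKX2-5 shRNA cells at day 10 rests on 0 counts in that line.

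At day 6 the members lower than WT in NKX2-5 shRNA cells numbered 7 (24.7% of all genes were lower) and those higher 2 (24.4%). In ZNF503 shRNA cells 7 were lower (28.5%) and 0 higher, and in ZEB2 shRNA cells 7 were lower (5.33%) and 0 higher; 27.2% and 5.67% of all genes were higher. By edgeR at an unadjusted p under 0.05 and by DESeq2, the number of members higher in these last lines was 0 as well. The median log2 changes of the members were -4.33, -3.58 and -1.06, against -0.002, -0.030 and 0.012 for all genes. The 7 members lower in NKX2-5 and in ZNF503 shRNA cells were the same, RYR2, PLN, CASQ2, SLC8A1, TRDN, JPH2 and HRC; ZEB2 shRNA cells had RYR2, PLN, SLC8A1, JPH2, HRC, ATP2A2 and CAMK2D.

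PLN held 117 and 119 CPM in WT at day 6, 22.8 and 19.5 with the ZEB2 shRNA, 1.02 and 0.893 with the ZNF503 shRNA and 0.258 and 0.601 with the NKX2-5 shRNA. The WT and ZEB2 shRNA libraries stood apart from each other and from both other lines. The log2 changes against WT were -2.47 ± 0.17 (adjusted p = 3.5e-06), -6.96 ± 0.24 (adjusted p = 1.1e-09) and -7.97 ± 0.25 (adjusted p = 3.9e-10). HRC gave a like order, with 54.7 and 49.5 CPM in WT, 15.5 and 10.7 with the ZEB2 shRNA, 0.715 and 0.162 with the ZNF503 shRNA and 0 and 0.10 with the NKX2-5 shRNA, where 1 library held 0 counts.

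SLC8A1 stood at 925 and 738 CPM in WT, 249.3 and 227 with the ZEB2 shRNA, 44.1 and 44.7 with the ZNF503 shRNA and 10.4 and 9.31 with the NKX2-5 shRNA. The 4 groups were separate, and NKX2-5 shRNA cells lay below ZNF503 shRNA cells (log2 difference -2.17 ± 0.14, adjusted p = 4.9e-06). Between those lines 5 members differed in all (14.7% of all genes), with RYR2 (-1.31 ± 0.23, adjusted p = 0.0028), JPH2 (-1.07 ± 0.20, adjusted p = 0.0047) and ATP2A2 (-0.35 ± 0.11, adjusted p = 0.048) also lower and CAMK2D higher (0.38 ± 0.10, adjusted p = 0.031) in NKX2-5 shRNA cells. The calls of ATP2A2 and CAMK2D were lost without either NKX2-5 shRNA library or ZNF503 shRNA replicate 1, and that of RYR2 without the latter. JPH2 held 118 and 101 CPM in WT, 60.6 and 50.5 with the ZEB2 shRNA, 17.8 and 11.3 with the ZNF503 shRNA and 6.71 and 7.05 with the NKX2-5 shRNA.

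For RYR2 and TRDN the level at day 6 fell below that of the undifferentiated cells of the same line. RYR2 stood at 4.2 and 4.08 CPM in NKX2-5 shRNA cells at day 6 against 110.2 and 127 CPM at their day 0, and at 11.8 and 8.85 CPM in ZNF503 shRNA cells against 98.6 and 92.6 CPM. TRDN stood at 3.65 and 4.66 CPM in NKX2-5 shRNA cells against 170.1 and 153 CPM, and at 1.89 and 4.67 CPM in ZNF503 shRNA cells against 62.2 and 70.2 CPM. WT and ZEB2 shRNA cells had no such loss of RYR2, with 282 and 217 CPM at day 6 in ZEB2 shRNA cells.

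From day 0 to day 6, RYR2 fell by 4.79 ± 0.57 on the log2 scale in NKX2-5 shRNA cells (adjusted p = 0.00028) and by 3.21 ± 0.14 in ZNF503 shRNA cells (adjusted p = 7.7e-11), and TRDN fell by 5.22 ± 0.48 (adjusted p = 7.8e-05) and by 4.28 ± 0.24 (adjusted p = 8.7e-10). HRC fell too (-3.95 ± 0.91, adjusted p = 0.0073, and -2.71 ± 0.52, adjusted p = 0.00031). These were the 3 members that fell in each line (26.9% and 34.7% of all genes fell), while 5 and 7 members rose (28.6% and 33.7%). In the same interval WT cells raised RYR2 by 2.43 ± 0.17 (adjusted p = 8.1e-07) and HRC by 5.70 ± 0.19 (adjusted p = 5.4e-09), and the value of TRDN was 0.30 ± 0.12 (adjusted p = 0.054); 8 of 10 members were called there, against 60.9% of all genes.

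RYR2 and TRDN were lost after day 2, whereas HRC in ZNF503 shRNA cells already held a mean of 1.42 CPM at day 2 against 2.73 CPM at day 0, without overlap (adjusted p = 0.082). From day 2 to day 6 the change of RYR2 in NKX2-5 shRNA cells differed from that in WT by -7.80 ± 0.27 on the log2 scale (interaction test, adjusted p = 2.1e-12), in ZNF503 shRNA cells by -7.13 ± 0.26 (adjusted p = 6.8e-12) and in ZEB2 shRNA cells by -1.69 ± 0.23 (adjusted p = 0.00023). In all, 7 members had such an interaction in NKX2-5 shRNA cells (46% of all genes), 7 in ZNF503 shRNA cells (48.2%) and 4 in ZEB2 shRNA cells (5.89%). PLN could not be judged by this test, because its fits rest on 0 counts at day 2 in each shRNA line.

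The inhibitor SLN and the kinase CAMK2D were the 2 members above WT in NKX2-5 shRNA cells at day 6. SLN held 1.55 and 1.02 CPM against 0.261 and 0.480 in WT (1.69 ± 0.59, adjusted p = 0.031), and CAMK2D 474 and 464 CPM against 366 and 370.2 (0.34 ± 0.10, adjusted p = 0.016). Neither group pair overlapped, but both calls were lost without any 1 of the 4 libraries, and that of SLN under DESeq2. In ZEB2 shRNA cells CAMK2D stood at 233 and 239 CPM (-0.64 ± 0.10, adjusted p = 0.0016) and ATP2A2 at 203 and 184 CPM against 296 and 268 in WT (-0.54 ± 0.11, adjusted p = 0.0063), the latter lost without WT replicate 1 or ZEB2 shRNA replicate 2. ATP2A2 gave 236 and 256 CPM in NKX2-5 shRNA cells and 324 and 304 CPM in ZNF503 shRNA cells (log2 -0.20 ± 0.11, adjusted p = 0.13, and 0.15 ± 0.11, adjusted p = 0.27).

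CASQ2, low as it was, was called lower in 2 lines at day 6. It held 2.00 and 1.46 CPM in WT, 2.80 and 2.37 in ZEB2 shRNA cells (0.62 ± 0.41, adjusted p = 0.40), 0.204 and 0.650 in ZNF503 shRNA cells (-1.95 ± 0.50, adjusted p = 0.0055) and 0.221 and 0.180 in NKX2-5 shRNA cells (-3.11 ± 0.52, adjusted p = 0.00033). The ZNF503 and NKX2-5 shRNA libraries overlapped each other, and the ZEB2 shRNA value did not pass the test. In NKX2-5 shRNA cells this followed a day 2 level of 4.33 and 2.40 CPM, which overlapped that of ZEB2 shRNA cells (1.76 and 2.49 CPM), and the interaction from day 2 to day 6 was -4.16 ± 0.63 (adjusted p = 4.7e-05).

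Other marker lists moved at day 6 as well. All 10 cardiomyocyte markers were lower in NKX2-5 and in ZNF503 shRNA cells (medians -7.37 and -5.72 on the log2 scale) and 7 of 10 in ZEB2 shRNA cells (median -1.17). Of 6 hepatic or endodermal markers, 6 were higher in NKX2-5 shRNA cells, with a summed level between 3133 and 3225 CPM against 324 to 657 CPM in WT, and 5 in ZNF503 shRNA cells, between 2354 and 2482 CPM. Of 5 mesendoderm markers, 2 were higher in ZEB2 shRNA cells (188 to 198 CPM against 13.8 to 14.6 CPM in WT) and 1 higher and 1 lower in NKX2-5 shRNA cells. Of 6 pluripotent cell markers, 3 were higher in ZNF503 shRNA cells (1627 to 1722 CPM against 1155 to 1177 CPM), and of 4 endothelial markers 2 were lower in both NKX2-5 (192 to 193 CPM) and ZNF503 shRNA cells (120.2 to 157.5 CPM) against 456.5 to 537 CPM in WT. Smooth muscle markers were lower for 4 of 5 in NKX2-5, 2 in ZEB2 and 3 in ZNF503 shRNA cells, where 1 was higher. The part of such shifts in the values of the members was not tested.

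At day 10, 7 of 10 members were lower in NKX2-5 shRNA cells (20.6% of all genes were lower), the same 7 as at day 6, with a median log2 change of -6.19 over the 10 (-5.43 with CASQ2 at its bound, against 0.028 for all genes). In ZEB2 shRNA cells 5 were lower (7.67%) and 1 was higher (10.6%), with a median of -1.60 against 0.026. The day 10 libraries of NKX2-5 shRNA cells differed among themselves. Replicate 2 was above replicate 1 for RYR2, PLN, SLN, SLC8A1, TRDN, JPH2 and HRC, and below it for ATP2A2 and CAMK2D.

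The inhibitors of the pump parted in ZEB2 shRNA cells. PLN held 121 and 141 CPM in WT at day 10, 5.43 and 4.62 CPM in ZEB2 shRNA cells and 0.768 and 2.67 CPM in NKX2-5 shRNA cells. SLN held 3.89 and 1.09 CPM in WT, 42.9 and 55.7 CPM in ZEB2 shRNA cells and 3.70 and 12.9 CPM in NKX2-5 shRNA cells. ZEB2 shRNA cells were thus the lowest but one group for PLN and the highest for SLN, with no overlap with WT in either.

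Against WT, PLN in ZEB2 shRNA cells was 26.0-fold lower (-4.70 ± 0.47 on the log2 scale, adjusted p = 0.0023) and SLN 19.8-fold higher (4.21 ± 0.71, adjusted p = 0.0095). The PLN call held without any 1 of the 4 libraries (from -4.81 to -4.58). The SLN call was lost without WT replicate 4 or ZEB2 shRNA replicate 4, with values from 3.67 to 5.50. SLN was also 2.57 ± 0.64 above NKX2-5 shRNA cells (adjusted p = 0.031), 1 of 7 members higher in ZEB2 than in NKX2-5 shRNA cells (10.8% of all genes were higher), a call lost without either ZEB2 shRNA library.

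Within ZEB2 shRNA cells, both genes moved after day 6. PLN went from 22.8 and 19.5 CPM to 5.43 and 4.62 CPM, a fall of 2.09 ± 0.23 on the log2 scale (adjusted p = 7.4e-06), while SLN went from 0.232 and 0 CPM to 42.9 and 55.7 CPM, a rise of 8.02 ± 0.39 (adjusted p = 3.6e-09). These were 2 of 5 members that changed in that interval (63.3% of all genes), where TRDN fell by 1.54 ± 0.14 (adjusted p = 6.3e-07) and RYR2 and HRC rose by 1.53 ± 0.14 (adjusted p = 5.4e-07) and 1.38 ± 0.24 (adjusted p = 0.00020). The 5 calls held without any 1 library.

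The change from day 6 to day 10 differed from that of WT for 3 members in ZEB2 shRNA cells (6.29% of all genes): PLN (-2.24 ± 0.47, adjusted p = 0.025), SLN (5.31 ± 1.19, adjusted p = 0.030) and TRDN (-2.16 ± 0.50, adjusted p = 0.033). The PLN and TRDN interaction calls were lost without any 1 of the 8 libraries, and that of SLN without any of 6. SLN is also expressed in skeletal muscle. Of 6 skeletal muscle markers, MYOD1 and MYF5 were at 0 at day 10 in all 3 groups, while MYOG, PAX7, ACTA1 and CKM had counts in each group. The list summed to between 61.1 and 94.7 CPM in ZEB2 shRNA cells, 258 and 315 CPM in WT and 114 and 170.5 CPM in NKX2-5 shRNA cells. Which cells gave the SLN reads was not tested.

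The pump itself moved little beside its inhibitors. ATP2A2 held 423 and 325 CPM in WT at day 10, 207 and 190 CPM in ZEB2 shRNA cells (-0.91 ± 0.28, adjusted p = 0.059) and 391 and 243 CPM in NKX2-5 shRNA cells (-0.23 ± 0.27, adjusted p = 0.52). The WT and ZEB2 shRNA libraries did not overlap, and the difference passed under DESeq2. These values are those of the row used. The second ATP2A2 row held 345.1 and 260.1 CPM in WT, 149.8 and 129.9 CPM in ZEB2 shRNA cells and 311.1 and 180.5 CPM in NKX2-5 shRNA cells. Its counts were 81.6% and 80.1% of those of the first row in WT, and 72.2% and 68.4% in ZEB2 shRNA cells, without overlap. CAMK2D held 463 and 422 CPM in WT, 251 and 255 CPM in ZEB2 shRNA cells (-0.80 ± 0.29, adjusted p = 0.095) and 445 and 247 CPM in NKX2-5 shRNA cells (-0.34 ± 0.29, adjusted p = 0.36).

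SLC8A1 stopped rising in ZEB2 shRNA cells. It held 249.3 and 227 CPM at day 6 and 248 and 203 CPM at day 10, whereas WT cells reached 2505 and 1881 CPM. The difference from WT at day 10 was -3.28 ± 0.70 on the log2 scale (adjusted p = 0.020), and in NKX2-5 shRNA cells, with 5.19 and 30.9 CPM, it was -6.93 ± 0.84 (adjusted p = 0.0010). The interaction from day 6 to day 10 in ZEB2 shRNA cells did not pass (-1.50 ± 0.74, adjusted p = 0.27).

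The release channel and its partners differed in degree. RYR2 held 809 and 650.2 CPM in ZEB2 shRNA cells against 2407 and 2269 CPM in WT (-1.68 ± 0.53, adjusted p = 0.065), and passed under DESeq2, and 6.53 and 25.4 CPM in NKX2-5 shRNA cells (-7.19 ± 0.67, adjusted p = 0.00043). TRDN held 31.1 and 23.3 CPM in ZEB2 shRNA cells against 176 and 148 CPM in WT (-2.57 ± 0.52, adjusted p = 0.017) and 0.0961 and 1.24 CPM in NKX2-5 shRNA cells (-7.91 ± 0.71, adjusted p = 0.00039). In this row, TRDN at day 10 in ZEB2 shRNA cells lay near its level in the same line at day 0, 24.9 and 25.2 CPM. In the second row it did not, with 41.3 and 29.9 CPM against 14.1 and 13.4 CPM at day 0. The second row stood at 130.4% ± 3.3 of the first at day 10 in place of 54.9% ± 2.5; the WT ratio at day 10 was 186.5%, and neither library pair overlapped.

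HRC held 42.4 and 27.6 CPM in ZEB2 shRNA cells against 152 and 127 CPM in WT (-1.99 ± 0.43, adjusted p = 0.022), and JPH2 held 77.8 and 43.2 CPM against 146 and 203 CPM (-1.53 ± 0.34, adjusted p = 0.023). The libraries did not overlap for either. The calls of HRC, JPH2, SLC8A1 and TRDN in ZEB2 shRNA cells at day 10 were each lost without any 1 of the 4 libraries, so that 1 or 2 of the 6 calls remained in those fits, which have 1 library on a side. In NKX2-5 shRNA cells HRC held 0.913 and 3.05 CPM (-6.13 ± 0.54, adjusted p = 0.00035) and JPH2 15.7 and 23.1 CPM (-3.16 ± 0.36, adjusted p = 0.00084). HRC was the 1 member whose interaction from day 6 to day 10 in NKX2-5 shRNA cells was upward (3.47 ± 0.93, adjusted p = 0.021), and TRDN the 1 whose interaction was downward (-3.23 ± 0.63, adjusted p = 0.0051), against 25% of all genes called. The HRC interaction lost its call without any 1 of 4 of its 8 libraries, among them NKX2-5 shRNA day 10 replicate 2.

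CASQ2 had 0 counts in both NKX2-5 shRNA libraries at day 10 and 2.59 and 0.435 CPM in WT, at least 26.5-fold lower (adjusted p = 0.011), a call that was lost without WT replicate 3. In ZEB2 shRNA cells it held 2.61 and 1.24 CPM, overlapping WT (0.27 ± 0.83, adjusted p = 0.85). Calsequestrin was thus the member of the release group for which no difference between ZEB2 shRNA cells and WT was detectable at day 6 or day 10 with these counts, with 54 counts in all in the WT libraries at day 10.

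Of the cardiomyocyte markers at day 10, 10 of 10 were lower in NKX2-5 shRNA cells (median -5.66) and 5 of 10 in ZEB2 shRNA cells (median -2.10). Hepatic or endodermal markers were higher for 6 of 6 in NKX2-5 shRNA cells, summing to between 27130 and 38780 CPM against 1484 to 3619 CPM in WT, and for 4 of 6 in ZEB2 shRNA cells, between 6453 and 7821 CPM. All 6 blood cell markers were higher in NKX2-5 shRNA cells, between 1438 and 1714 CPM against 14.5 to 65.5 CPM, and 3 were lower in ZEB2 shRNA cells. Of 4 endothelial markers, 3 were higher and 1 lower in NKX2-5 shRNA cells, with a lower sum (145 to 242 CPM against 348 to 441 CPM in WT), and 2 were higher in ZEB2 shRNA cells. Pluripotent cell markers were higher for 3 of the 4 tested in both lines, and smooth muscle markers lower for 2 of 5 and 1 of 5. Mesendoderm markers were higher for 1 of 3 tested in ZEB2 shRNA cells. The part of these shifts in the members' values was not tested.

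A further 48 genes of calcium handling were counted as a list, of which 2 (STRIT1 and MRLN) had no row. At day 10, 43 were tested: 8 were higher and 16 lower in NKX2-5 shRNA cells (median log2 change -0.38), and 3 were higher and 13 lower in ZEB2 shRNA cells (median -0.43), against 43.9% and 18.2% of all genes called. SRL, sarcalumenin of the sarcoplasmic reticulum, held 66.7 and 60.2 CPM in WT, 3.85 and 2.14 CPM in ZEB2 shRNA cells (-4.39 ± 0.59, adjusted p = 0.0045) and 0 and 0.428 CPM in NKX2-5 shRNA cells (-8.16 ± 0.77, adjusted p = 0.00044). RYR1, the skeletal muscle ryanodine receptor, held 17.9 and 21.2 CPM in WT, 0.930 and 1.20 CPM in ZEB2 shRNA cells and 1.25 and 0.381 CPM in NKX2-5 shRNA cells.

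The inositol trisphosphate receptor ITPR3, a release channel of the endoplasmic reticulum in many cell types, went the other way. It held 3.84 and 3.81 CPM in WT, 25.8 and 23.6 CPM in ZEB2 shRNA cells (2.69 ± 0.50, adjusted p = 0.013) and 223 and 74.5 CPM in NKX2-5 shRNA cells (5.29 ± 0.55, adjusted p = 0.00061). CACNB2, a subunit of the L-type calcium channel, held 102.9 and 97.3 CPM in WT, 19.1 and 15.4 CPM in ZEB2 shRNA cells and 0.865 and 5.76 CPM in NKX2-5 shRNA cells. The pore subunit CACNA1C held 276 and 353 CPM in WT and 12.1 and 12.5 CPM in NKX2-5 shRNA cells (-4.67 ± 0.24, adjusted p = 0.00015). AKAP6, an anchoring protein of protein kinase A, and CAMK2B, another subunit of the kinase, were lower in ZEB2 shRNA cells (-3.07 ± 0.41, adjusted p = 0.0046, and -2.96 ± 0.66, adjusted p = 0.024).

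Over the 15 group means of log2(CPM + 1), the members differed in how closely they followed their common profile. Pearson's r with the mean standardized profile of the 10 was 0.975 for SLC8A1, 0.958 for HRC, 0.932 for PLN and 0.877 for JPH2, and 0.681 for RYR2, 0.643 for CAMK2D, 0.592 for CASQ2, 0.465 for SLN, 0.326 for ATP2A2 and 0.130 for TRDN. Each member is itself part of that mean. All values of TRDN here are those of its first row. Its second row took another course in WT, with means of 203.9 CPM at day 2 and 300.9 CPM at day 10, and was not compared with the profile. Between pairs, PLN and SLC8A1 stood at 0.950, SLC8A1 and JPH2 at 0.921, SLC8A1 and HRC and PLN and JPH2 at 0.901, PLN and HRC at 0.885, RYR2 and HRC at 0.811, JPH2 and CAMK2D at 0.755, JPH2 and HRC at 0.754, TRDN and RYR2 at 0.614 and TRDN and ATP2A2 at -0.549. The groups share their line and their day, so these values describe the 15 points and carry no test. The promoters printed above are those of the 4 genes with the highest r to the mean profile.

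Among 17026 genes with at least 1 CPM in some group, the non-member genes with the profile most like the mean of the members were TSHZ2 (r = 0.983), MYOM1 (0.978), DPY19L2P1 (0.978), ZNRF2P1 (0.977), FGF10 (0.977), TMOD1 (0.976), RNF207 (0.973) and CTNNA3 (0.973). All 8 had their highest mean in WT cells at day 10, from 26.9 CPM for ZNRF2P1 to 692 CPM for MYOM1. MYOM1 encodes the M-band protein myomesin and TMOD1 the thin filament capping protein tropomodulin. DPY19L2P1 and ZNRF2P1 are listed as pseudogenes and may share reads with near-identical copies.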

How the data were processed

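Total RNA of H1 cells was sequenced from a stranded library kit. The authors mapped paired reads to hg19 (GRCh37) with TopHat2 2.0.14, Bowtie2 2.2.1.0 and SAMtools 0.1.19.0 (versions per the submitters' processing notes), counted reads per RefSeq gene region with RSeQC, and deposited raw read counts, not normalized. Of 41627 accessions, 40285 (96.8%, with 97.1% of the counts) matched a symbol, and 0 sample columns were left unmapped. Per symbol, the row with the largest total was kept.

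Groups of 1 day, of 1 line, or of 2 days for interactions were fitted with edgeR 4.0.16 in R 4.3.3 (TMM, filterByExpr, quasi-likelihood F test), and p-values were adjusted (Benjamini-Hochberg) over every gene tested. The SE given with a log2 change is not an output of that fit. It was derived as the absolute log2 change over the square root of F. The script was tested on simulated data. Alternatives were DESeq2 1.42.0, no TMM factors, no filter, prior count 1, the study's thresholds, 1 fit of all libraries, a replicate block and leaving out each library. The members, lists and naming rules (all members; at most 6 other calcium genes per day 10 comparison by largest change; the 8 most alike genes) were chosen with earlier results of these data known; 1 gene that the rule names is not reported here. Replicates are called biological in the series' description, which does not say if they were separate cultures. Equal replicate numbers are not stated to mark a shared batch. Depth limits low genes: 3 counts over a group were 0.0191 to 0.105 CPM. Intervals cover counting error only.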

Additional observations from a re-analysis of the deposited data

Results flagged for a closer look

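The 23 results below were singled out because the change of a member over time differed between an shRNA line and WT cells by the interaction test (edgeR, 5% FDR); values are differences of log2 changes, shRNA minus WT, and all share the WT libraries. From day 2 to day 6 in NKX2-5 shRNA cells they were HRC -8.34, RYR2 -7.80, SLC8A1 -5.71, TRDN -5.01, CASQ2 -4.16, JPH2 -3.10 and SLN 6.40. The SLN value rests on 0 counts at day 2 in NKX2-5 shRNA cells and depends on the prior count. In ZNF503 shRNA cells they were RYR2 -7.13, HRC -5.31, TRDN -3.95, JPH2 -2.03, SLC8A1 -1.58, CAMK2D 0.46 and ATP2A2 0.37. In ZEB2 shRNA cells they were SLC8A1 -1.80, HRC -1.74, RYR2 -1.69 and CAMK2D -0.78.

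From day 6 to day 10 they were HRC 3.47 and TRDN -3.23 in NKX2-5 shRNA cells, and SLN 5.31, PLN -2.24 and TRDN -2.16 in ZEB2 shRNA cells. HRC in NKX2-5 shRNA cells at day 6 rests on 5 counts.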

How the results depend on the processing

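Of 147 calls of single members, 1594 values under alternatives were computed. Of these, 1418 kept direction and call, 175 kept the direction and lost the call, and 1 reversed. The prior count alters the log2 values and not the p-values, so a prior count of 1 could not lose a call. Its 161 values, of called and uncalled members, all kept call and direction. Second rows of SLC8A1 and CAMK2D held nearly the counts of the first, so they tested little for these genes. Counts of members called changed as follows.

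With 1 fit of all libraries, NKX2-5 shRNA against WT went from 3 to 1 (day 0) and 7 to 1 (day 2), ZEB2 shRNA at day 0 from 3 to 1, ZNF503 shRNA at day 0 from 2 to 0, NKX2-5 against ZNF503 shRNA at day 6 from 5 to 3, and the interactions of days 2 and 6 from 4 to 1 in ZEB2 and from 7 to 4 in ZNF503 shRNA cells, while that of days 6 and 10 in NKX2-5 shRNA cells went from 2 to 4. With the fold and FDR thresholds of the study, counts went to 0, 1 and 1 at day 0 (NKX2-5, ZEB2, ZNF503), to 0 and 1 at day 2 (NKX2-5, ZNF503), to 0 at day 6 and 2 at day 10 in ZEB2 shRNA cells, to 3, 5 and 0 for the 3 steps in WT, to 1 for ZEB2 shRNA cells from day 6 to day 10, to 0 for NKX2-5 against ZNF503 shRNA at day 6, to 3 for ZEB2 against NKX2-5 shRNA at day 10, and for interactions to 0 (ZEB2) and 3 (ZNF503) of days 2 and 6 and 1 (NKX2-5) and 0 (ZEB2) of days 6 and 10. ZEB2 shRNA at day 2 went from 0 to 1 with DESeq2, with no filter on low counts and with the replicate block. The second-largest row, an alternative chosen after seeing the data, and the replicate block each took ZNF503 shRNA at day 0 from 2 to 1.

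Leaving out 1 replicate gave these ranges of members called: NKX2-5 shRNA against WT 1 to 2 (day 0), 3 to 7 (day 2), 7 (day 6) and 6 to 10 (day 10); ZEB2 shRNA 1 to 2, 0, 5 to 7 and 1 to 2; ZNF503 shRNA 0, 5 to 7 and 7; WT steps 5 to 6, 7 to 8 and 5 to 8; NKX2-5 against ZNF503 shRNA 2 to 7; ZEB2 against NKX2-5 shRNA at day 10 3 to 10; interactions of days 2 and 6 6 to 8, 3 to 5 and 5 to 7 (NKX2-5, ZEB2, ZNF503) and of days 6 and 10 1 to 4 and 0 to 1 (NKX2-5, ZEB2). In these fits a lone library is assumed to vary like the other groups. The reversed call was JPH2 in ZNF503 shRNA cells, days 2 to 6 (-2.67 to 3.40), without ZNF503 shRNA day 2 replicate 1. Uncalled values that crossed 0 were CAMK2D in ZNF503 shRNA at day 6 (0.022 with no TMM factors, and -0.14 to 0.048), SLN in ZNF503 shRNA at day 6 (-0.25 to 0.62), ATP2A2 and CAMK2D in NKX2-5 shRNA at day 10 (-0.62 to 0.081 and -0.83 to 0.025) and CASQ2 in ZEB2 shRNA at day 10 (-0.42 to 2.14). The causes were not tested.

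Deviations of equally numbered libraries correlated from -0.351 to 0.532 over 19 pairs of groups of 1 day. At day 2 the values were from 0.114 to 0.532 in 5 of 6 pairs and -0.0195 for WT and ZNF503 shRNA cells; at the other days values of both signs occurred or the 1 pair was negative (-0.289, day 10). The numbers were therefore not taken to pair the samples, which the labels do not state either. The block took ZEB2 shRNA against WT at day 10 from 6 to 9 members. The alternative by longest transcript row was not run, because transcript lengths of this RefSeq release were not used here. Depth limits PLN, SLN and CASQ2, which held at most 3 counts in 16, 17 and 9 of 30 libraries.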
